A study of Mus musculus with 4 samples.

Results

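The mitochondrial ribosomal protein genes were taken as every gene whose symbol is Mrpl or Mrps followed by a number and at most one letter. This rule found 78 of the 25239 genes counted, 49 with a large subunit symbol (Mrpl) and 29 with a small subunit symbol (Mrps). RNA was compared between mouse embryonic stem cells that had lost Ogt, the gene of the only enzyme that attaches O-linked N-acetylglucosamine to nuclear and cytosolic proteins, and control cells. All cells carried floxed Ogt alleles (Ogt fl/fl). The 2 Ogt iKO (inducible knockout) libraries came from cells kept with 4-hydroxytamoxifen (4-OHT) for 6 days, and the 2 control libraries from cells kept for 6 days without it. Both groups grew on mitomycin C-treated mouse embryonic fibroblasts (MEF), and viable stem cells were sorted away from these feeders with antibodies to CD90.2 and CD326. The treated cells were in addition selected for YFP, so loss of Ogt, 4-OHT and the YFP selection cannot be told apart here. The recombinase and its driver are not named in the labels, and no library came from treated cells with intact Ogt alleles.

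Counts of Ogt were 437 and 389 with 4-OHT and 2963 and 3108 without it, so its RNA was down to 12.9% of the control level (edgeR quasi-likelihood test, adjusted p = 2.486e-07, log2 fold change -2.96 with SE 0.0676). The 4 libraries held 14668489 to 16504204 counts, and 3 counts corresponded to 0.182 to 0.205 CPM, a count divided by the library's total and multiplied by 1000000. The marker levels in this paragraph are on that scale. In later paragraphs the library's total over tested genes is first multiplied by a TMM factor, explained below, unless library totals alone are named. The 12.9% and the fold change of Ogt are on this TMM scale too. All 8 stem cell markers were detected in every library, with a summed level of 2199 and 2524 CPM in Ogt iKO and 3719 and 3784 CPM in controls. Dppa5a did not fall (459 and 541 CPM against 447 and 460), whereas each of the others was below both controls in both Ogt iKO libraries. All 10 fibroblast markers were detected as well, at 3674 and 1427 CPM in Ogt iKO and 1785 and 2111 CPM in controls, so that by this sum one Ogt iKO library was the highest and the other the lowest. Acta2 (147 and 80.3 CPM against 33.0 and 28.4) and Pdgfrb (26.6 and 16.7 CPM against 5.15 and 7.47) were higher in both Ogt iKO libraries, whereas for the other 8 markers Ogt iKO replicate 1 lay above and replicate 2 below both controls. The part of feeder RNA in the results was not tested, but the counts of called genes are given below without each Ogt iKO library. These are bulk RNA levels, in which fewer cells of a type and less RNA per cell cannot be told apart.

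Mitochondrial ribosomes translate the few proteins encoded by mitochondrial DNA, all of them subunits of the oxidative phosphorylation complexes. Their RNAs are encoded in mitochondrial DNA, whereas all their proteins are encoded in the nucleus, made in the cytosol and imported. The small subunit holds the mRNA and decodes it, and the large subunit forms the peptide bond and releases the new chain toward the inner membrane. Compared with bacterial ribosomes, part of the proteins have a bacterial counterpart and part are found only in mitochondrial ribosomes.

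Most of the genes were lower in the Ogt iKO libraries. Of the 77 genes that passed the low-count filter, 56 fell, 2 rose and 19 did not pass the test, at an adjusted p under 0.05 with trimmed mean of M-values (TMM) scaling, which sets libraries to a common level over the bulk of genes. That is 72.7% of the tested members called lower, against 32.0% of all 14525 genes tested, and 2.6% called higher against 33.2% of all genes. In either direction 65.3% of all genes were called. Among the 9576 genes with a mean of at least 10 CPM, 40.9% were lower and 29.4% higher. The median log2 fold change of the members was -0.39, with a range from -1.44 to 0.61, against 0.024 for all genes tested. Both Ogt iKO libraries lay below both controls for 67 members and above both for 4, where 40.9% of all genes were lower and 42.3% higher without overlap. The changes were mostly moderate, since 22 members fell and 1 rose by at least 1.5-fold, against 16% of all genes lower and 23.0% higher by that much.

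Both subunits held mostly falls. In the small subunit 20 of 29 genes fell (69.0%), 2 rose and 7 did not pass the test, with a median of -0.39. In the large subunit 36 of 48 tested genes fell (75%), none rose and 12 did not pass the test, with a median of -0.41. No difference between the subunits was tested. Summed over genes with TMM scaling, small subunit RNA stood at 1303 and 1386 CPM in Ogt iKO and 1757 and 1667 CPM in controls. That was 78.5% of the control mean. Large subunit RNA stood at 2666 and 2848 CPM against 3800 and 3619 CPM, or 74.3% of control. The groups did not overlap for either sum.

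**Figure D1:**
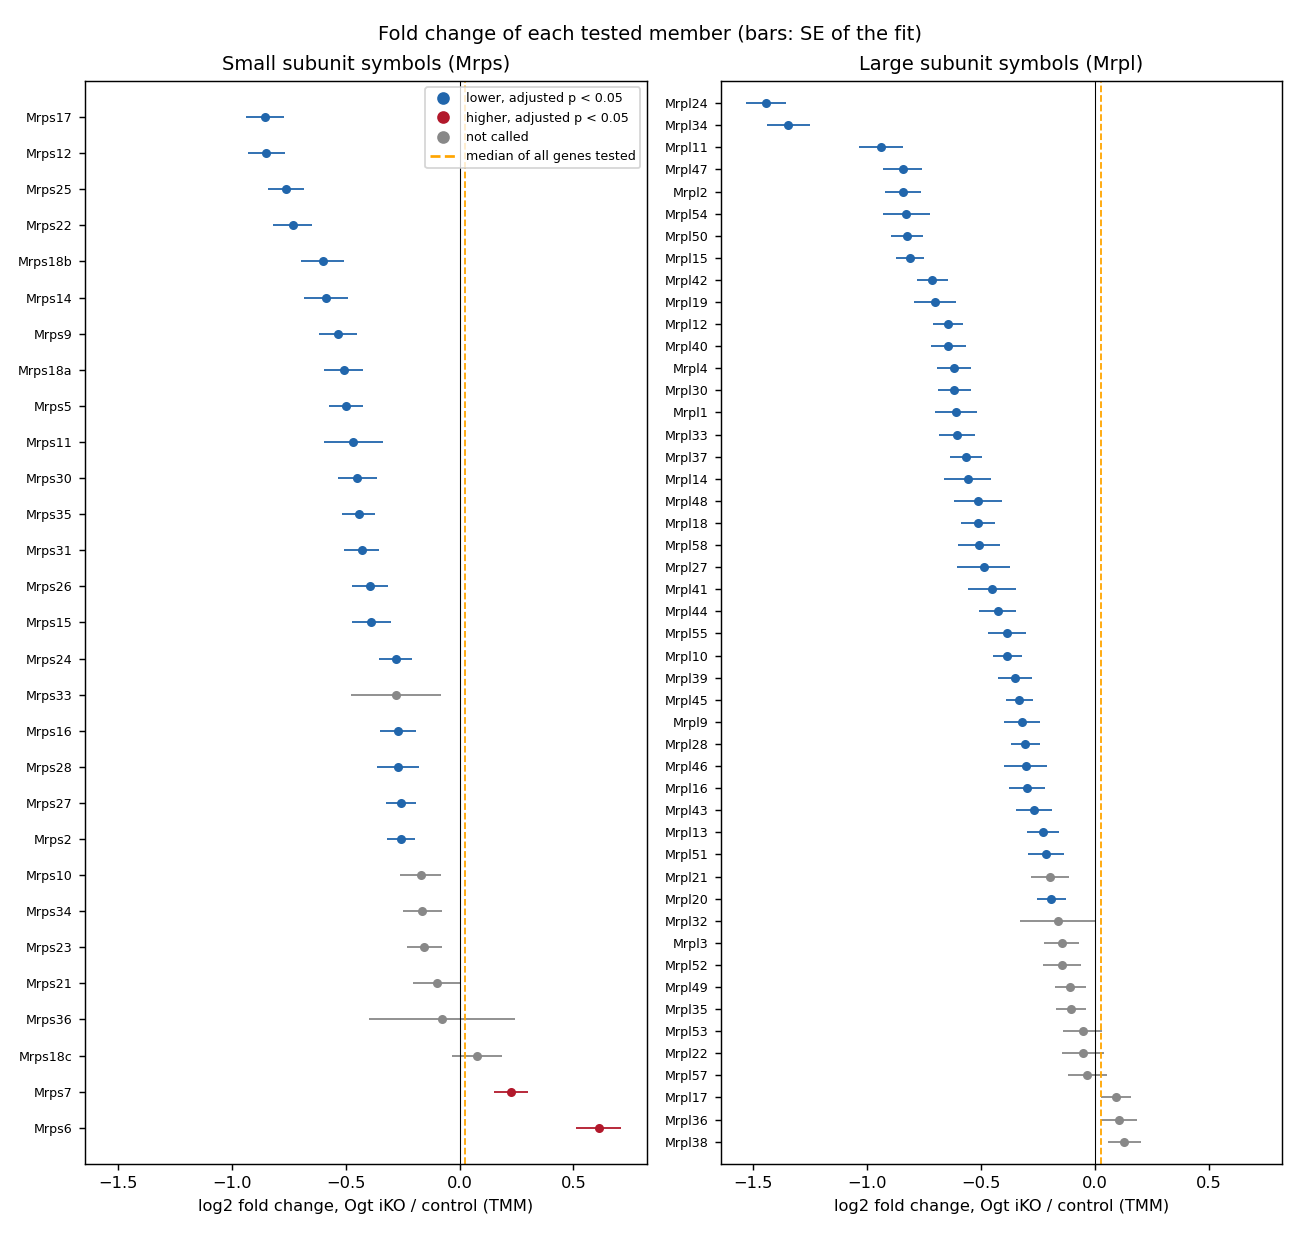
Log2 fold change of each tested gene, Ogt iKO against control with TMM scaling, for small subunit symbols (left) and large subunit symbols (right). Points are the fitted values and bars their standard errors, blue marks genes called lower, red genes called higher and grey genes not called. The points run from -1.44 for Mrpl24 to 0.61 for Mrps6, and 71 of 77 lie below 0.

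The size of this difference depended on the scaling. TMM factors were 1.06 in both Ogt iKO libraries and 0.938 and 0.948 in the controls. Scaled by library totals alone, the median of all genes moved from 0.024 to 0.19, and 42.1% of all genes were called higher and 22.6% lower. On that scale 40 members fell, 5 rose and 32 were not called, with a median of -0.22. The 40 were all among the 56 called lower with TMM, and 16 of the 56 were no longer called. By subunit, 13 small subunit genes fell and 2 rose, and 27 large subunit genes fell and 3 rose. The 3 that rose were Mrpl17, Mrpl36 and Mrpl38, none of them called with TMM. The summed levels were then 88.3% of control for the small and 83.5% for the large subunit.

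**Figure D2:**
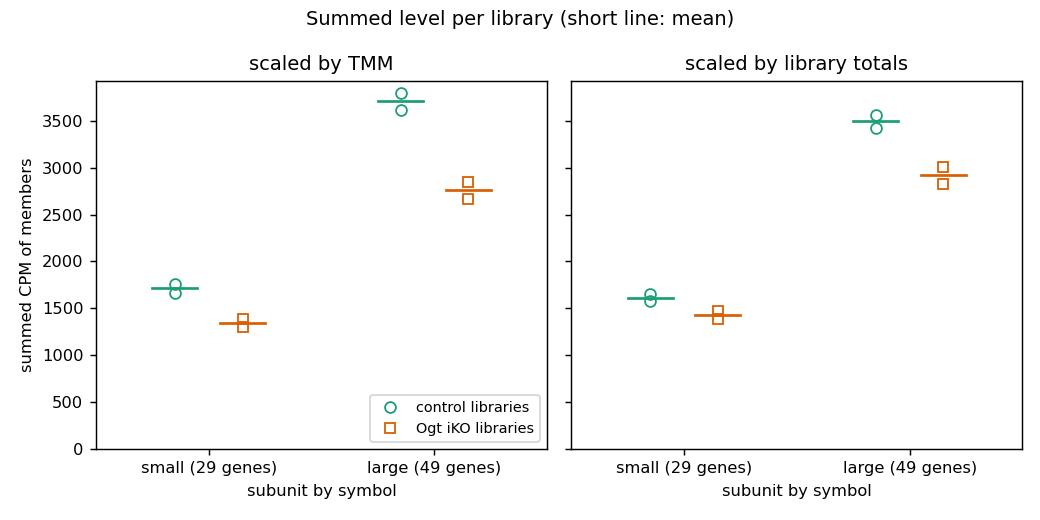
Summed level of the small and large subunit genes in each of the 4 libraries, in CPM, with TMM scaling and with library totals alone. Points are libraries (green circles control, orange squares Ogt iKO) and short lines the group means. With TMM the small subunit sum is 1345 ± 58.9 CPM in Ogt iKO against 1712 ± 63.9 CPM in controls, and the large subunit sum 2757 ± 129 CPM against 3710 ± 128 CPM (means ± SD of 2 libraries). With library totals alone the distance between groups is smaller.

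The ratio of small to large subunit counts does not depend on the scaling of libraries. It was 0.489 and 0.487 in the Ogt iKO libraries and 0.462 and 0.461 in the controls, so the groups did not overlap and the mean ratio in Ogt iKO was 106% of control. Without the counts of Mrps6 and Mrps7, described below, it was 0.441 and 0.439 against 0.433 in both controls, or 102% of control. Leaving out the 2 members called higher, both of the small subunit, can only lower the ratio in Ogt iKO against control, and no large subunit gene was left out in turn. With subunits by structure, also described below, it was 0.432 and 0.428 against 0.403 and 0.404. With 2 libraries against 2 the smallest p an exact permutation test can give is 0.333, and none was run.

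**Figure D3:**
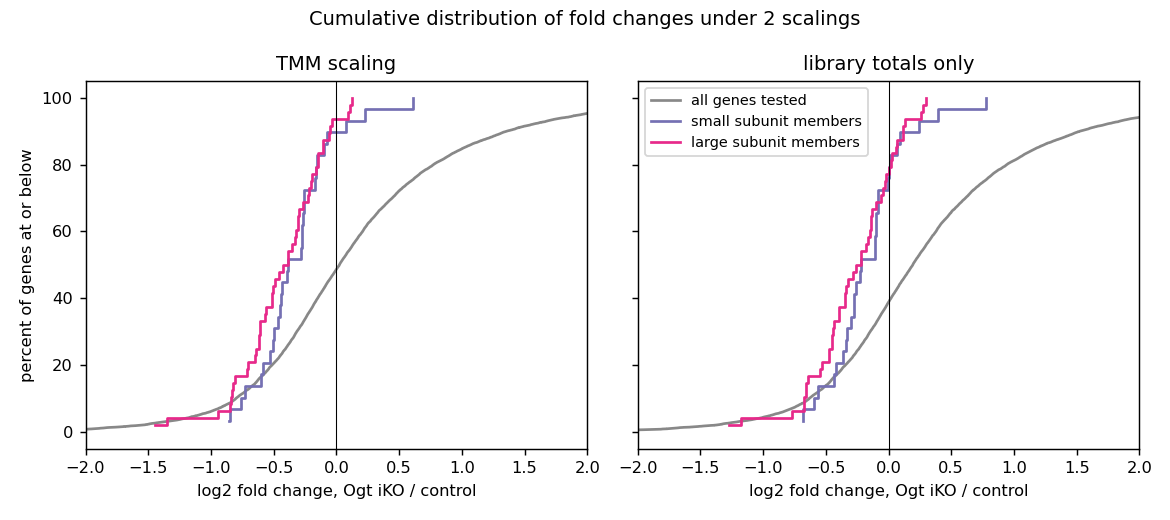
Cumulative share of genes (y axis, in percent) at or below a log2 fold change (x axis) for the small subunit genes, the large subunit genes and all 14525 genes tested, with TMM scaling (left) and library totals alone (right). With TMM the medians are -0.39, -0.41 and 0.024, and with library totals alone -0.22, -0.24 and 0.19. The curves of the 2 subunits are steeper than that of all genes, which has the longer tail on both sides.

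The 3 strongest falls were in large subunit genes. Mrpl24 (chromosome 3, 87918131 to 87923450, GRCm38) encodes the counterpart of a bacterial protein that starts large subunit assembly. It measured 19.5 and 21.7 CPM in Ogt iKO and 55.2 and 56.7 CPM in controls, with TMM scaling as for all members. Both Ogt iKO libraries were far below both controls, at 36.8% of the control mean (edgeR adjusted p = 4.536e-06, log2 fold change -1.44 with SE 0.0872). Mrpl34 (chromosome 8, 71464926 to 71465753) encodes another protein with a bacterial counterpart and measured 16 and 18.2 CPM against 43.8 and 43.3 CPM. It fell to 39.3% of control (edgeR adjusted p = 8.581e-06, log2 fold change -1.35 with SE 0.0936). No other member fell below 50% of control, the next being Mrpl11 at 52.2%.

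The start regions of Mrpl24 and Mrpl34 are printed because they share a sequence. Each window, from RefSeq on GRCm38.p6, runs from 250 bases before to 50 bases after a transcript start, 5′ to 3′ on the strand of the gene. Capitals mark matches on either strand to 4 motifs, described further below. For Mrpl24 the window is set on a transcript start that lies downstream of the first base of the gene's RefSeq range.
Mrpl24, chr3:87919294-87919593, plus strand: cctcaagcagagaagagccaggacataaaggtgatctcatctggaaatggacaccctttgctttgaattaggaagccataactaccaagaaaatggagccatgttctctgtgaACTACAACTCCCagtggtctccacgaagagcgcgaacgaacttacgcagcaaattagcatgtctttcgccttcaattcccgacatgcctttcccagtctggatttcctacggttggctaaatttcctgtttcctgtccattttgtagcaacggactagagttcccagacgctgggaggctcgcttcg
Mrpl34, chr8:71464676-71464975, plus strand: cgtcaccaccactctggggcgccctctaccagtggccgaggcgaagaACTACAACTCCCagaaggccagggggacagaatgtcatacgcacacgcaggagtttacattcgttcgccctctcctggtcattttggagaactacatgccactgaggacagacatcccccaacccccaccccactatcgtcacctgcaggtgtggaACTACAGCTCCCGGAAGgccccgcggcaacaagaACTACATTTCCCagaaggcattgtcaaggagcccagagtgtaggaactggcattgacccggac
Mrpl24 holds ACTACA, then 2 bases of any kind, then TCCC, once, 137 bases before the start. Mrpl34 holds it 3 times, 203, 47 and 13 bases before the start.

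The next 3 large subunit genes by size of change were Mrpl11, Mrpl47 and Mrpl2. Mrpl11, part of the base of the stalk where translation factors dock, measured 52.4 and 65.0 CPM in Ogt iKO and 114 and 111 CPM in controls (log2 fold change -0.94, SE 0.0979, adjusted p = 6.286e-05, edgeR). Mrpl47 measured 28.8 and 30.2 CPM against 55.1 and 50.9 CPM (log2 fold change -0.85, SE 0.0837, adjusted p = 4.856e-05). Mrpl2, a core protein near the site of peptide bond formation, measured 50.4 and 56.0 CPM against 97.6 and 93.4 CPM (log2 fold change -0.84, SE 0.0775, adjusted p = 3.34e-05). The groups were apart for each of the 3. Mrpl12, the stalk protein that recruits translation factors, measured 93.4 and 99.7 CPM against 156 and 146 CPM. It fell to 63.9% of control (edgeR adjusted p = 5.523e-05, log2 fold change -0.65 with SE 0.0655).

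In the small subunit the 5 strongest falls lay between -0.85 and -0.60. Mrps17 measured 39.4 and 35.0 CPM in Ogt iKO and 68.2 and 66.2 CPM in controls (log2 fold change -0.85, SE 0.0844, adjusted p = 4.874e-05, edgeR). Mrps12 (chromosome 7, 28739641 to 28741821), a protein of the decoding centre, measured 31.7 and 34.6 CPM against 59.1 and 60.2 CPM (log2 fold change -0.85, SE 0.0811, adjusted p = 4.08e-05). Mrps25 and Mrps22 are found only in mitochondrial ribosomes. Mrps25 measured 35.2 and 37.9 CPM against 60.9 and 62.9 CPM, a log2 fold change of -0.76 (adjusted p = 6.367e-05). Mrps22 measured 31.5 and 34.7 CPM against 52.9 and 57.0 CPM, a log2 fold change of -0.73 (adjusted p = 0.0001271). Mrps18b measured 37.7 and 43.5 CPM against 64.2 and 59.0 CPM (log2 fold change -0.60, adjusted p = 0.0005692). In all 5 both Ogt iKO libraries were below both controls.

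Mrps6 and Mrps7 were the only members called higher with TMM. Mrps6 (chromosome 16, 92058336 to 92112227), which has a bacterial counterpart, measured 35.2 and 37.8 CPM in Ogt iKO and 25.6 and 22.2 CPM in controls. It rose to 153% of control (edgeR adjusted p = 0.0006895, log2 fold change 0.61 with SE 0.0981) and was called higher under each of the 11 fits run. However, 19.9% of its exon length lies under exons of other genes on the same strand, among them Slc5a3, an inositol transporter. Slc5a3 itself had 264 and 185 counts in Ogt iKO and 122 and 142 in controls (log2 fold change 0.68, adjusted p = 0.008641). In addition, 32.3% of the 50-base windows of the Mrps6 transcript also occur in another gene, mostly the overlapping Gm49711. How reads shared by such genes were counted is not given in the sources used here, so the value of Mrps6 is uncertain.

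Mrps7 (chromosome 11, 115604140 to 115608036), which binds the rRNA in the head of the small subunit, measured 91.8 and 96.8 CPM in Ogt iKO and 84.7 and 76.5 CPM in controls. It rose to 117% of control (edgeR adjusted p = 0.02449, log2 fold change 0.23 with SE 0.0738). This call was lost with DESeq2 (adjusted p = 0.1016), with no low-count filter (0.0524), without Ogt iKO replicate 2 (0.1066) and without control replicate 2 (0.2066). An exon overlap of 11.9% on the opposite strand was found with Gga3 and Mif4gd. Windows of the same kind as above are printed for Mrps6 and Mrps7, the 2 genes that rose, and for Mrps12, to set beside those of the genes that fell most.
Mrps6, chr16:92058086-92058385, plus strand: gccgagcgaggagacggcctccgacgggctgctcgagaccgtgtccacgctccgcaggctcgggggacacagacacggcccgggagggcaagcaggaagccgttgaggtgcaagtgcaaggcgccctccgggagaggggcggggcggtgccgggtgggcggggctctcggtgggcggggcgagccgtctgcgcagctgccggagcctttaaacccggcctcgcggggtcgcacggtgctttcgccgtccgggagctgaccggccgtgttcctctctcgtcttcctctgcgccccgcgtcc
Mrps7, chr11:115603890-115604189, plus strand: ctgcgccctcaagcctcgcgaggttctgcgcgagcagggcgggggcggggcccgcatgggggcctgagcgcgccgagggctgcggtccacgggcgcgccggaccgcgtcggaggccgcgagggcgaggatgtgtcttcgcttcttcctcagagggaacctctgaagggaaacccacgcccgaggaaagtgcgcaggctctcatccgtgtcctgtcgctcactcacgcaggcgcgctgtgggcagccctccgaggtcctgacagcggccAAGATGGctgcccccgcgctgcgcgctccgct
Mrps12, chr7:28741772-28742071, minus strand: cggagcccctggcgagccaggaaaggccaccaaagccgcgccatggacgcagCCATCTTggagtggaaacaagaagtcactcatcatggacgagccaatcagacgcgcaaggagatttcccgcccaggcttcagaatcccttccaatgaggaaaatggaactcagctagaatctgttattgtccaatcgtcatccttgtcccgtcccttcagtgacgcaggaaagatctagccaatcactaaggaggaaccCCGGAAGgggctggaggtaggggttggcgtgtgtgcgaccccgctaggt
The Mrps6 window holds none of the motifs searched, and that of Mrps7 holds AAGATGG. The Mrps12 window holds CCGGAAG and, on the other strand, AAGATGG. Mrps17, which fell slightly more than Mrps12, and Mrpl11, Mrpl47 and Mrpl2 had none of the motifs in their windows.

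**Figure D4:**
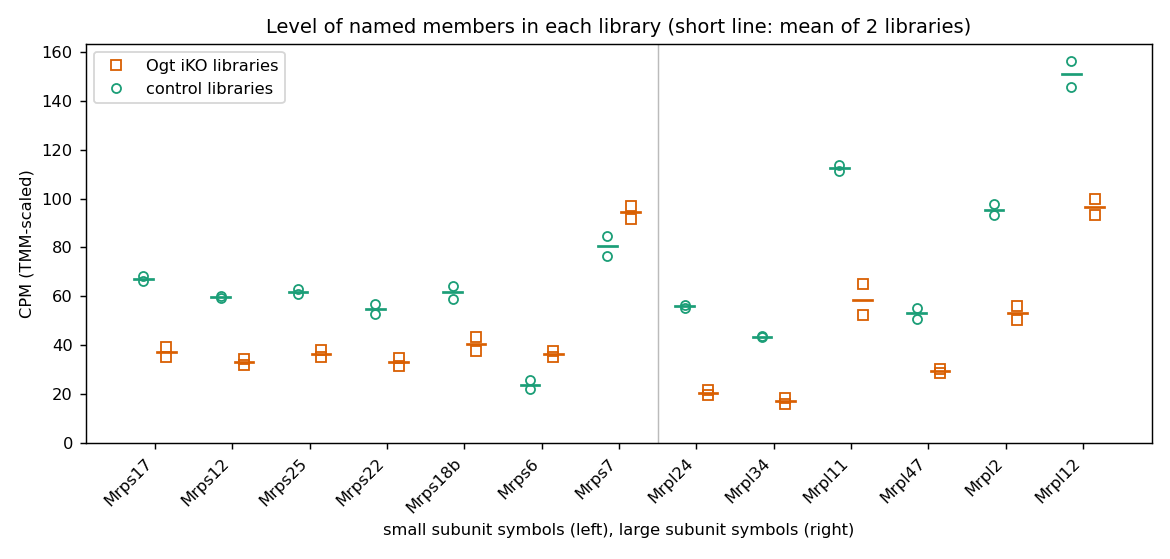
Level of 13 named members in each library, in CPM with TMM scaling, with controls as green circles and Ogt iKO libraries as orange squares. Points are single libraries and short lines the means of 2. Mrpl24 lies at 19.5 and 21.7 CPM in Ogt iKO and at 55.2 and 56.7 CPM in controls, whereas Mrps6 and Mrps7 are the genes with Ogt iKO above control.

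Levels of different genes were compared per kilobase of the principal transcript. In the large subunit Mrpl20, Mrpl42 and Mrpl52 were the highest by the mean of both groups, an order that lowers genes that fell. Mrpl42 stood at 101 CPM per kilobase in Ogt iKO and 166 in controls (log2 fold change -0.72, adjusted p = 3.711e-05, edgeR). Mrpl20 stood at 128 against 147 CPM per kilobase, a log2 fold change of -0.19 (adjusted p = 0.02713, and 0.1881 without control replicate 1). Mrpl52 stood at 108 against 119 CPM per kilobase and did not pass the test (log2 fold change -0.15, adjusted p = 0.1591, edgeR). Ogt iKO replicate 2, at 47.1 CPM, lay nearer the controls (51.5 and 48.2 CPM) than replicate 1, at 43.1 CPM. The size of the fall thus depended on which of them was kept. In the small subunit the highest were Mrps24, Mrps15 and Mrps34. Mrps24 fell from 80.0 to 65.9 CPM per kilobase (log2 fold change -0.28, adjusted p = 0.008773) and Mrps15 from 78.9 to 60.4 (log2 fold change -0.39, adjusted p = 0.003904). Mrps34 stood at 56.0 against 62.7 CPM per kilobase and did not pass the test (log2 fold change -0.16, adjusted p = 0.1266, edgeR). The log2 fold change of Mrps34 was -0.27 without Ogt iKO replicate 2 and -0.078 without Ogt iKO replicate 1. Its value is uncertain too, because exons of Nme3 cover 37.0% of its exon length on the same strand and those of Mapk8ip3 63.4% on the opposite strand. Nme3 itself rose (log2 fold change 0.42, adjusted p = 0.01993). With library totals alone Mrpl20, Mrps24 and Mrps15 were not called (adjusted p = 0.7536, 0.2002 and 0.05271), and the values of Mrpl52 and Mrps34 were 0.024 and 0.0065. By control level alone Mrpl33 (132 CPM per kilobase) would stand before Mrpl52, and Mrps12 (67.6) before Mrps34.

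The 3 Mrps18 genes are related to one another and to one bacterial protein, and their products sit at different places. Mrps18a, whose product is part of the large subunit in spite of the symbol, measured 39.5 and 44.4 CPM in Ogt iKO and 61.1 and 58.2 CPM in controls (log2 fold change -0.51, adjusted p = 0.0009029, edgeR). Mrps18b fell by 0.60, as above, though 30.5% of its exon length and 27.2% of its 50-base windows are shared with other genes. Mrps18c, the form at the place of the bacterial protein, measured 39.0 and 48.8 CPM against 40.8 and 42.3 CPM, and the groups overlapped (log2 fold change 0.08, adjusted p = 0.564). Its value rested on single libraries, at 0.24 without Ogt iKO replicate 1 (adjusted p = 0.04863) and -0.12 without Ogt iKO replicate 2.

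Mrps30 also encodes a large subunit protein and fell (64.6 and 71.9 CPM in Ogt iKO, 99.2 and 87.0 CPM in controls, log2 fold change -0.45, adjusted p = 0.002071, edgeR). Mrps36 encodes a component of the oxoglutarate dehydrogenase complex, not a ribosomal protein, and had only 22 and 26 counts in Ogt iKO and 20 and 28 in controls (log2 fold change -0.08, SE 0.32, adjusted p = 0.8431). With Mrps18a and Mrps30 placed in the large subunit and Mrps36 left out, 18 of 26 small subunit genes fell and 2 rose, with a median of -0.33. In the large subunit 38 of 50 fell and none rose, with a median of -0.44. Mrpl23 was the only member that failed the filter, at 6 and 5 counts in Ogt iKO and 3 and 2 in controls, and 51.7% of its 50-base windows also occur in other genes, mostly the pseudogene Mrpl23-ps1.

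Both the genes of proteins with a bacterial counterpart and those without held mostly falls. Of the Mrps18 genes only Mrps18c was placed among those with a counterpart, Mrps18a and Mrps18b among those without, and Mrps36 was left out. Among those with a counterpart 33 of 45 fell and 2 rose, with a median of -0.39. Among those without 23 of 31 fell and none rose, with a median of -0.43. The median was -0.28 for 16 small subunit genes with a counterpart and -0.41 for 10 without. In the large subunit it was -0.49 for 29 genes with a counterpart and -0.43 for 21 without.

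Exons of other genes covered more than 10% of the exon length of 18 members. Among the other 59 tested, 43 fell and none rose, with a median of -0.39, so that both genes called higher are among the 18. Of the named falls, Mrpl24 overlapped Rrnad1 over 26.3% (log2 fold change of Rrnad1 -0.29, adjusted p = 0.1409, edgeR), Mrpl47 overlapped Actl6a and Ndufb5 over 24.2%, and Mrps25 overlapped Nr2c2 over 69.8%. These 3 partners fell too, Actl6a with a log2 fold change of -0.93 (adjusted p = 9.47e-06), Ndufb5 with -0.23 (adjusted p = 0.01073) and Nr2c2 with -0.53 (adjusted p = 0.0005725). All these partners lie on the opposite strand, and their part in the members' counts was not tested. Mrps24 shares 15.4% of its exon length on the same strand with Urgcp, which rose (log2 fold change 0.36, adjusted p = 0.007949), and Mrps18c shares 23.2% on the same strand with Gm43511. Mrpl12 overlaps Gm16755 over 13.1% and Mrps18b overlaps Gm16279 over 30.5%, both on the opposite strand. Without Ogt iKO replicate 1, the library with the most fibroblast marker RNA, 19 small subunit genes fell and 3 rose, and 33 large subunit genes fell and 1 rose. Without Ogt iKO replicate 2, the library with the least, 21 small subunit genes fell and 1 rose, and 38 large subunit genes fell and none rose.

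Promoter windows were found for 69 of the 78 members. CCGGAAG, the core bound by ETS factors such as GABP, occurred in 26 of them (37.7%) against 18.6% of the 11446 tested genes with a window and 9.93% of all 27025 genes with one. GCATGCGC, the core bound by NRF1, occurred in 8 (11.6%) against 5.75% of tested genes. AAGATGG, bound by YY1, occurred in 13 (18.8%) against 7.86%. Both strands were searched. Of the members with at least one of these 3 motifs 22 of 38 fell, with a median of -0.27, and of those with none 27 of 30 fell, with a median of -0.48. Among tested genes that are no members the order was the other way round for the 3 motifs pooled. There 36.6% were lower with a median of -0.062 where one was present, and 30.8% with a median of 0.051 where none was. Taken singly, 38.3% were lower with CCGGAAG and 31.2% without, and 37.7% with AAGATGG and 32% without. For GCATGCGC the order was as in the members, with 29.8% lower where it was present and 32.6% where it was absent. These values are a description, and no difference between them was tested.

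The fourth motif, ACTACA, 2 bases of any kind and TCCC, was added after the windows of Mrpl24 and Mrpl34 had been read, which were looked at because these genes fell most. These 2 genes are therefore no support for it. It is known as a sequence bound by ZNF143 and THAP11, the latter a partner of HCF-1 (gene Hcfc1), itself a protein that OGT modifies and cleaves. Among the other 67 members with a window it occurred in 3 (4.48%), near the 4.36% of tested genes (2.08% of all genes). These were Mrpl50, Mrps22 and Mrpl42, which held places 9, 12 and 13 from the largest fall. Their log2 fold changes were -0.83, -0.73 and -0.72. Their sites are printed with the bases on each side, and the capitals mark the match, which the search itself fixed.
Mrpl42, chr10:95501968-95502009, minus strand: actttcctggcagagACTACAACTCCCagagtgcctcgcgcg
Mrpl50, chr4:49521139-49521180, minus strand: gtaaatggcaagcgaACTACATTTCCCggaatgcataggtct
Mrpl50, chr4:49521200-49521241, minus strand: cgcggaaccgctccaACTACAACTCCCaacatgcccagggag
Mrps22, chr9:98601702-98601743, minus strand: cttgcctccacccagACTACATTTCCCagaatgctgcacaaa
They lie 45 bases before the start in Mrpl42, 82 and 143 in Mrpl50 and 49 in Mrps22. Zfp189 starts 83 bases from Mrpl50 on the other strand, and it rose (log2 fold change 0.74). Among tested genes that are no members, 52.0% of the 494 with the motif were lower and 16% higher, with a median of -0.28, and 31.6% of the 10884 without it were lower and 33.7% higher, with a median of 0.029. With library totals alone 38.9% with the motif were lower and 23.5% higher, against 22.3% and 42.8% without. The difference was not tested, and genes with and without the motif were not matched for level. Of all genes of at least 10 CPM 40.9% were lower with TMM. A match to letters is not a bound site, and binding was not measured. Hcfc1 and Thap11 RNA did not pass the test (log2 fold change -0.06 and 0.08), though with library totals alone Thap11 was higher (0.25, adjusted p = 0.01546).

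Many of the genes share a start region with a neighbour on the other strand. A protein-coding gene started within 1000 bases on the opposite strand of 32 members, and 31 of these pairs had both genes tested. Of the 23 pairs in which the member fell, the partner fell in 14, rose in 7 and was not called in 2. Of all genes 32.0% were lower and 33.2% higher. In part of the pairs the genes overlap at their starts. Exons of Twnk cover 33.4% of the exon length of Mrpl43 and those of Mrps11 12.2% of Mrpl46, and all of these fell. Those of Tmem63b, which rose, cover 11.2% of Mrpl14, which fell. The strand counted is not given, and the part of reads shared by such pairs was not tested. The median over the 31 pairs was -0.45 for members and -0.25 for partners. Mrps12 and Sars2, the mitochondrial seryl-tRNA synthetase, start 172 bases apart and both fell (log2 fold change -0.85 and -0.95). Mrps5 lies beside Zfp661, and both fell (-0.50 and -1.55), whereas Mrpl37 fell (-0.57) beside Cyb5rl, which rose (0.73). Mrps11 and Mrpl46 are partners of each other and are counted from both sides, which adds 2 to the 14.

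The other genes of mitochondrial gene expression also held more falls than rises, to be read against the 32.0% lower and 33.2% higher among all genes, and the 40.9% lower among genes of at least 10 CPM. Of 5 mitoribosomal proteins whose symbols are outside the rule 3 fell and none rose. Log2 fold changes were -0.44 for Ptcd3 (adjusted p = 0.000393, edgeR) and -0.29 for Dap3 (adjusted p = 0.003609), both small subunit proteins, and -0.30 for the large subunit protein Gadd45gip1 (adjusted p = 0.01735, and 0.09688 without Ogt iKO replicate 1 and 0.066 without control replicate 2). With library totals alone Dap3 and Gadd45gip1 were not called (adjusted p = 0.1131 and 0.2261). Of 27 genes of ribosome assembly and rRNA modification 18 fell and 3 rose, with a median of -0.40. The small subunit assembly factor Mettl17 had a log2 fold change of -1.09 (adjusted p = 4.803e-05). Tfb1m, which methylates the small subunit rRNA, had one of -1.06 (adjusted p = 6.083e-05), and Ngrn, needed for the large subunit rRNA, one of -0.97 (adjusted p = 1.772e-05).

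Of 15 translation factors 13 fell and none rose, with a median of -0.43. They included the release factor Mtrf1 (log2 fold change -1.69, adjusted p = 4.89e-05, edgeR), the ribosome-dependent GTPase Guf1 (-1.12, adjusted p = 3.159e-05) and Lrpprc, which stabilises mitochondrial mRNAs (-0.47, adjusted p = 0.0001093). Of 20 genes that charge or amidate mitochondrial tRNAs 13 fell and 2 rose, with a median of -0.36. The synthetases Aars2 and Sars2 fell, with log2 fold changes of -0.98 and -0.95 (adjusted p = 1.549e-05 and 2.916e-05). Of 13 genes of mitochondrial DNA replication and transcription 9 fell and 1 rose, with a median of -0.44. Tfam, which packages mitochondrial DNA and starts its transcription, fell (log2 fold change -0.80, adjusted p = 2.494e-05), as did Ssbp1, the single-strand binding protein (-0.92, adjusted p = 2.887e-05). Polg, the catalytic subunit of the mitochondrial DNA polymerase, rose (log2 fold change 0.51, adjusted p = 0.0001269). RNAs encoded in mitochondrial DNA, among them the rRNAs of these ribosomes, could not be analysed, because none of those looked for was among the genes counted.

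Of 12 tested transcription factors and coactivators known to act on such genes 6 fell (50%) and none rose, with a median of -0.32, where 32.0% of all genes and 40.9% of those of at least 10 CPM were lower. With library totals alone 6 were lower and 1 higher. Esrra, Mycn and Pprc1 fell, with log2 fold changes of -1.43, -1.19 and -0.63 (adjusted p = 1.209e-05, 4.345e-06 and 3.175e-05, edgeR). Nrf1, Gabpa and Yy1, whose motifs are counted above, did not pass the test, at log2 fold changes of 0.0055, -0.085 and -0.04. Of the other GABP subunits Gabpb2 fell (log2 fold change -0.48, adjusted p = 0.000277) and Gabpb1 did not pass the test (-0.16, adjusted p = 0.08767). Ppargc1a failed the filter with 12 and 4 counts in Ogt iKO and 0 in both controls.

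**Figure D5:**
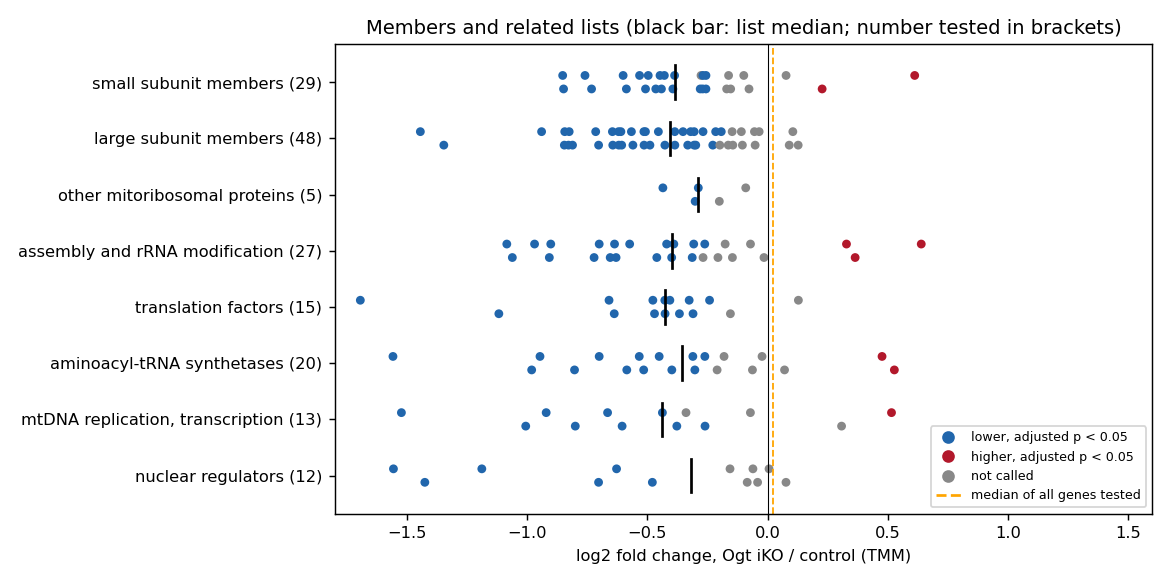
Log2 fold change (x axis, TMM) of each tested gene in the small and large subunit and in 6 related lists, with the number tested in brackets. Points are genes, blue where called lower, red where called higher and grey where not called, black bars are list medians, and the dashed line is the median of all genes tested. List medians lie between -0.44 and -0.29, and the median of all genes is 0.024.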

How the data were processed

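PolyA RNA of 4 libraries was sequenced from a stranded kit, per the labels' protocols. The deposited tables give raw whole counts per gene symbol for 25239 symbols, and the submitters' processing notes name STAR, Picard and mm10 without a role or version. The strand counted, the gene annotation and the treatment of reads with several matches are not given in the sources used here.

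Counts were fitted with edgeR 4.0.16 (R 4.3.3) by its quasi-likelihood test over all 4 libraries, with TMM scaling, edgeR's low-count filter (14525 genes kept), no covariate and Benjamini-Hochberg adjustment over all genes tested, and genes were called at an adjusted p under 0.05. The script was tested on simulated data. The labels do not say whether replicates were separate cultures, so p-values measure only the spread between these samples, which may be technical. Library depth, 14668489 to 16504204 counts, sets the precision, and 3 counts are the floor. Exon overlap and principal transcripts came from GENCODE vM21, positions from RefSeq GRCm38.p6, which placed 78 of 78 symbols, and shared sequence was counted in 50-base windows of the transcripts.

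The members, the related lists, the markers and the tests were chosen with earlier results of these data known. Genes were named by a rule: up to 5 called members of each subunit with the largest change in each direction, the 3 of each with most counts per transcript length, members whose place differs from the symbol or that are paralogs, Mrpl12, members that failed the filter, and up to 3 genes of each related list with the smallest adjusted p. One gene that the rule names is not reported here. Other genes are named as overlapping or neighbouring genes, for motifs or as regulators after their values were seen. Alternatives were RLE size factors, library totals, DESeq2 1.42.0, other filters, a replicate block, each library left out, an adjusted p under 0.01 and subunits by structure. Leaving out members with overlapping exons, a fold of at least 1.5, and the small to large ratio without Mrps6 and Mrps7 or by structure were added after seeing the data.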

Additional observations from a re-analysis of the deposited data

How the results depend on the processing

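Medians of both subunits stayed below 0 in every setting run. All 56 members called lower kept their sign over 11 fits, 38 of them also their call, and of the 2 called higher Mrps6 alone kept its call. With library totals alone 13 small subunit genes fell and 3 large subunit genes rose, and the large subunit median was -0.24. On that scaling 4 members with a bacterial counterpart and 1 without rose, the related lists had 1 fall outside the symbol rule, 1 rise among translation factors, 2 in mitochondrial DNA replication and transcription and 1 among regulators, and Mrps34, Mrpl52 and Mrps36 changed sign, to 0.0065, 0.024 and 0.090. Only 1 small subunit gene rose with DESeq2, with no low-count filter, at an adjusted p under 0.01 or at a fold of at least 1.5, and 0 rose without overlapping exons. With that fold 6 small and 16 large subunit genes fell. Without each library in turn, 1 to 3 small and 0 to 1 large subunit genes rose, 16 to 21 and 30 to 38 fell, and medians were -0.45 to -0.31 and -0.48 to -0.38. In these fits, in which the lone library of a group is assumed to vary like the other group, 1 to 3 members with a counterpart, 0 to 1 without, 1 to 2 tRNA synthetase genes and 0 to 1 regulators rose. Mrps18c was 0.24 without Ogt iKO replicate 1 and -0.12 without Ogt iKO replicate 2, and Mrps36 was 0.11 without Ogt iKO replicate 1 and 0.18 without control replicate 2. Apart from the scaling and left-out libraries, the cause of these changes was not tested.

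With the replicate number as a block, 20 small subunit genes fell and 2 rose (median -0.39) and 37 large subunit genes fell and 0 rose (median -0.41). The numbers give no pairing beyond a shared number, since the deviations of same-numbered libraries correlated at 0.0859. Depth limits Mrpl23 and Mrps36, whose counts were 2 to 28 per library.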
